A study of Mus musculus with 12 samples.

Results

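Gene expression in mouse brain tumours was compared between old hosts given nicotinamide mononucleotide (NMN) and untreated old hosts. A gene entered the comparison when 3 or more of the 6 libraries held at least 1 CPM (reads scaled to a common library size), which kept 14849 of the 24054 genes in the table. The NMN group held 3 tumours from C57BL/6 mice aged 16 months that received NMN daily at 300 mg per kg, while the untreated old group held 3 tumours from C57BL/6 mice of the same age with no treatment. All 6 hosts were labelled female. Every host had tumour cells placed in the striatum, and tumours were taken once symptoms appeared, so a tumour's time of growth was not fixed. The characteristics name the cell line ms7080, whereas the protocol speaks of BC cells, and the labels do not say whether these are the same line. A single tumour line was used, the mice lived 3 to a cage, and the labels do not say which of them shared a cage. Libraries from 3 young hosts and 3 old hosts under parabiosis, which complete the 12 libraries, served only to estimate the spread between replicates.

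NMN is made from nicotinamide by the enzyme Nampt and is joined to an adenylate group by the Nmnat enzymes to give NAD. NAD is a coenzyme of glycolysis and of the mitochondrial respiratory chain, and it is consumed as a substrate by the sirtuin deacylases, by the poly(ADP-ribose) polymerases (Parp genes) and by the ectoenzyme Cd38. NAD levels are widely reported to decline with age in rodent tissues, and NMN is given to old mice to raise them.

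Recovered reads ranged from 18566096 to 23633676 per library, and 3 reads corresponded to 0.112 to 0.141 CPM. Tumour genes were present throughout: Sox2, a neural stem cell factor, was at 147.7, 141 and 139 CPM in NMN-treated old tumours and at least 135 CPM in each untreated old tumour. Markers of neurons, astrocytes, oligodendrocytes, microglia and endothelium were also measured in all 6 libraries, whereas the B cell marker Ms4a1 stayed under 1 CPM in each. Such bulk values cannot tell fewer cells of a type apart from less RNA per cell.

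Untreated old replicates 1 and 2 went against their sex label. Xist, the RNA that silences an X chromosome in female cells, was at 1127, 834 and 742 CPM in NMN-treated old tumours and at 1.88, 2.76 and 379.7 CPM in untreated old tumours. The Y-linked RNA helicase gene Ddx3y was at 38.8, 70.1 and 51.8 CPM in NMN-treated old tumours, against 68.4, 88.4 and 86.2 CPM in untreated old tumours. Xist was thus far lower in untreated old replicates 1 and 2 than in the other 4 tumours, and Y-linked RNA was present in all 6 tumours. The labels do not give the sex of the tumour line, and the part of tumour and host cells in these values was not tested. Where leaving out those 2 libraries turns the direction of a list median given here or clearly moves it, both values are given, with untreated old replicate 3 then standing alone and assumed to vary like the other libraries. NMN replicate 1 stood apart on the first principal component of the 6 libraries, which held 50.1% of the variance.

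No gene passed an adjusted p of 0.05 in limma across the 14849 genes, either higher (0%) or lower (0%) with NMN. The smallest adjusted p was 0.150, for Plekhg1. At an unadjusted p under 0.05 limma listed 1058 genes higher (7.13%) and 484 genes lower (3.26%) in NMN-treated old tumours. This excess on the higher side moved with the scaling: quantile normalization gave 859 higher and 854 lower, and centring each library on its median gave 773 higher and 805 lower. By edgeR's quasi-likelihood test on the recovered reads 0 genes were called, with 755 higher and 765 lower at an unadjusted p under 0.05. DESeq2 called 19 genes higher (0.128%) and 25 lower (0.168%) at an adjusted p under 0.05. In all 44 the 2 groups did not overlap, which comes from the same values as the calls and is no separate support. Over all genes, 12.7% were higher and 6.96% lower with no overlap between the groups.

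The replicate numbers gave another picture. Same-numbered NMN and untreated old tumours deviated together from their group means over all genes, with Pearson correlations of 0.378, 0.207 and 0.292. With the replicate number as a block, limma fitted to only the 6 libraries called 469 genes higher (3.16%) and 8 lower (0.0539%) at an adjusted p under 0.05. Without the block, the same 6 libraries gave 0 called genes in either direction. A block on 6 libraries leaves few independent values from which to estimate the spread. All 469 were higher in 3 of 3 pairs, which the block test itself favours, because it sets a difference against the spread between pairs. Of these 469 genes, 371 did not overlap between the groups. Of the 477 genes called with the block, 252 also had an unadjusted p under 0.05 without it, and 11 were called by DESeq2. The labels do not say what a shared number stands for, and correlations from the same libraries and genes cannot show that it marks a pair.

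**Figure D1:**
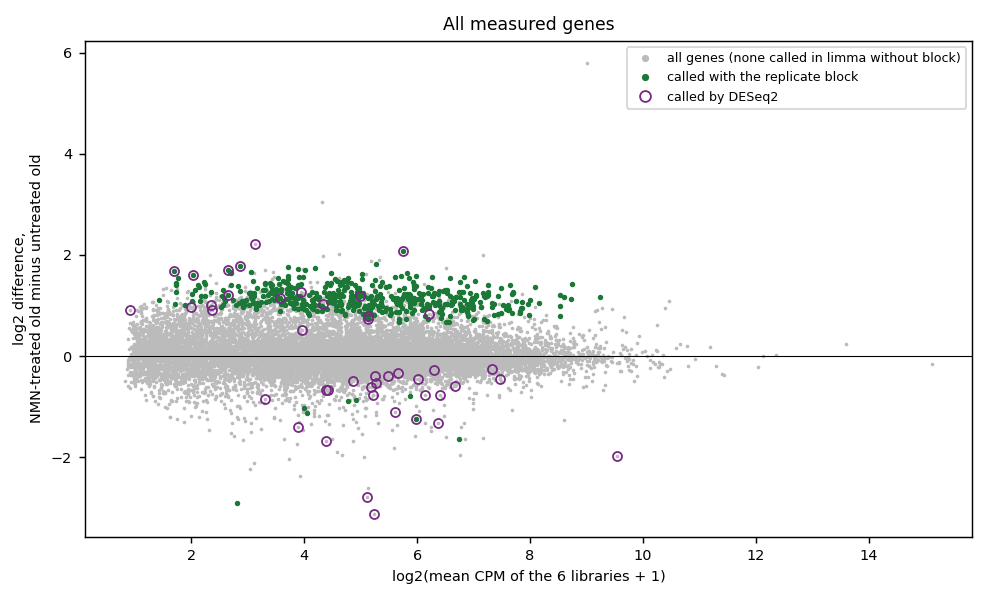
Difference in log2(CPM + 1), NMN-treated old minus untreated old tumours, against log2 of the mean CPM of the 6 libraries plus 1, for 14849 genes. Green points mark the 477 genes called by limma with the replicate block, nearly all of them above 0, and purple rings mark the 44 genes called by DESeq2.

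Genes higher with NMN were named by their small p and the lack of overlap between the groups, so that lack was fixed by the choice. Plekhg1, a guanine nucleotide exchange factor at chr10:3740251-3967303 (GRCm38.p6), was at 39.8, 48.5 and 40.8 CPM in NMN-treated old tumours, against 15.9, 19.3 and 20.1 CPM in untreated old tumours. Its lowest NMN library lay well above its highest untreated library, with a log2 difference of 1.18 ± 0.15 (SE) and adjusted p values of 0.15 in limma, 0.0287 with the replicate block and 3.31e-07 in DESeq2. Tns1, a focal adhesion protein that binds actin, was at 79.7, 112 and 88.9 CPM with NMN and at 58.4, 54.4 and 42.5 CPM without, again with no overlap (log2 difference 0.84 ± 0.16 (SE), DESeq2 adjusted p = 0.00402). Plcb4, a phospholipase C that acts downstream of G protein-coupled receptors, was at 44.7, 41.3 and 42.00 CPM in NMN-treated old and 24.6, 24.99 and 26.5 CPM in untreated old tumours. Its 3 values with NMN lay close together and clear of the untreated ones (log2 difference 0.73 ± 0.14 (SE), limma adjusted p = 0.478, 0.045 with the block).

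Kcnip1 and Lrrc55 encode channel subunits, Chrm2 a receptor and Slc17a6 a transporter. Kcnip1, a calcium-binding subunit of A-type potassium channels at chr11:33629339-33993348, was at 7.51, 7.86 and 10.5 CPM with NMN and at 2.44, 1.79 and 1.62 CPM without. Every NMN library lay well above every untreated one (log2 difference 1.70 ± 0.34 (SE), limma adjusted p = 0.478, 0.032 with the block). Lrrc55, an auxiliary subunit of large-conductance potassium channels, was at 5.903, 12.4 and 12.7 CPM in NMN-treated old tumours and at 2.44, 1.53 and 2.597 CPM in untreated old tumours, without overlap (log2 difference 1.78 ± 0.36 (SE)). Chrm2, the M2 muscarinic acetylcholine receptor, was at 6.89, 6.73 and 4.05 CPM with NMN and at 2.11, 0.897 and 1.47 CPM without, also without overlap. Slc17a6, which loads glutamate into synaptic vesicles, was named through DESeq2 (adjusted p = 0.0348) and was at 6.398, 11.7 and 22.4 CPM with NMN, against 2.96, 0.897 and 1.99 CPM without. Its NMN values were widely spread, with the highest in NMN replicate 3, and did not overlap the untreated ones (limma log2 difference 2.21 ± 0.55 (SE)).

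Genes of other functions were named by the same rule. Chdh, the mitochondrial choline dehydrogenase that yields betaine aldehyde, was at 4.95, 6.15 and 6.26 CPM with NMN and at 2.35, 2.91 and 1.88 CPM without. Fndc5, the membrane precursor of irisin, was at 18.2, 17.97 and 13.9 CPM with NMN, against 7.41, 6.61 and 7.08 CPM without. Both genes separated the groups fully, with log2 differences of 1.01 ± 0.20 (SE) for Chdh and 1.13 ± 0.26 (SE) for Fndc5. Fam20a, a pseudokinase that activates a secretory-pathway kinase, was at 5.32, 3.42 and 4.05 CPM with NMN, against a narrow 1.69, 1.68 and 1.66 CPM without (log2 difference 0.96 ± 0.20 (SE)). Tunar, a long non-coding RNA described in neural cells, was at 2.64, 4.08 and 5.05 CPM with NMN and at 0.704, 0.411 and 0.414 CPM without, and it was called by DESeq2 (adjusted p = 0.0222) and with the block (0.037).

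Genes lower with NMN were named in the same way. Tspan6, a tetraspanin at chrX:133891068-133901208, was at 48.7, 51.6 and 50.5 CPM in NMN-treated old tumours, against 110.2, 86.8 and 68.8 CPM in untreated old tumours. The NMN values were almost equal to each other and all under the lowest untreated value (log2 difference -0.78 ± 0.14 (SE), limma adjusted p = 0.478, DESeq2 adjusted p = 0.000236). Cd151, a tetraspanin that associates with integrins, was at 29.1, 32.2 and 29.99 CPM with NMN and at 43.02, 49.7 and 40.9 CPM without (log2 difference -0.53 ± 0.11 (SE)).

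Lgals1 and Col4a6 were more widely spread among the untreated tumours. Lgals1, which encodes the secreted lectin galectin-1 at chr15:78926725-78930465, was at 26.3, 54.5 and 58.1 CPM with NMN and at 159.7, 119 and 73.2 CPM without (log2 difference -1.33 ± 0.31 (SE), DESeq2 adjusted p = 0.022). Col4a6, a basement membrane collagen chain, was at 6.36, 5.72 and 14.1 CPM with NMN, against 50.6, 23.8 and 17.9 CPM without. Untreated old replicate 1 was the highest of the 6 for both genes, and the groups still did not overlap. Rhoc, a small GTPase linked to cell motility, was at 25.9, 23.3 and 28.9 CPM with NMN and at 54.00, 51.1 and 32.6 CPM without (log2 difference -0.77 ± 0.18 (SE)). Pvr, an adhesion receptor of the nectin-like family that binds Tigit, was at 13.04, 16.8 and 16.2 CPM with NMN, against 30.4, 25.4 and 19.8 CPM without (log2 difference -0.67 ± 0.16 (SE)). Tigit itself, an inhibitory receptor of lymphocytes, was at 1.73, 1.52 and 1.502 CPM with NMN and at 2.11, 2.84 and 1.99 CPM without, also without overlap. Of 11 measured checkpoint ligands and phagocytosis brakes 8 were lower (median -0.25). Among these 11, 0 had an unadjusted p under 0.05, and 1 was lower without overlap, beside 6.96% of all genes. Without the 2 libraries low in Xist 8 were higher and 3 lower (median 0.25).

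The proteasome genes Shfm1, Psma5 and Psmc1 were also named for their p and lack of overlap, and their differences were small. Shfm1, a small subunit of the proteasome lid, was at 30.2, 33.7 and 31.7 CPM with NMN, against 44.8, 41.3 and 40.8 CPM without (log2 difference -0.40 ± 0.09 (SE)). Psma5, a subunit of the proteasome core, was at 51.1, 58.6 and 51.3 CPM with NMN and at 81.1, 71.5 and 69.96 CPM without (log2 difference -0.46 ± 0.12 (SE)). Psmc1, an ATPase of the proteasome cap, was at 143, 148 and 145 CPM with NMN, against 174, 185 and 165 CPM without (log2 difference -0.26 ± 0.08 (SE)). DESeq2 called all 3 lower, at adjusted p values of 0.00136 for Shfm1, 0.022 for Psma5 and 0.0144 for Psmc1, while limma gave 0.478, 0.478 and 0.478 in the same order. Sec61a1, the channel through which new proteins enter the endoplasmic reticulum, was at 136, 146 and 164 CPM with NMN and at 206, 190.4 and 212 CPM without (log2 difference -0.45 ± 0.11 (SE)).

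**Figure D2:**
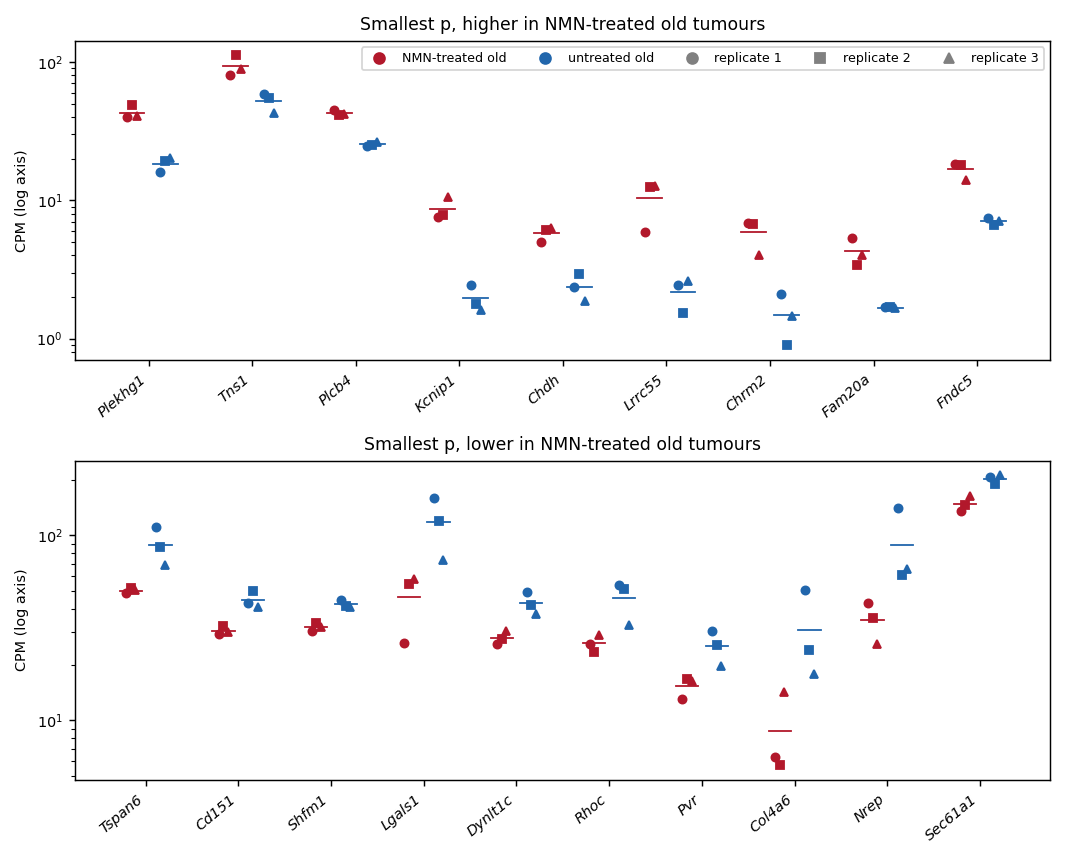
CPM on a log axis for named genes among those of smallest limma p, 9 higher and 10 lower with NMN, with red points for NMN-treated old tumours, blue points for untreated old tumours, 1 marker shape per replicate number and a line at each group mean (n = 3 each). The groups do not overlap for any gene plotted, which the rule for naming them required.

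No gene that makes NAD was called or reached an unadjusted p of 0.05. Of 14 measured genes of NAD synthesis and salvage, 7 were higher and 7 lower with NMN and the median log2 difference was -0.00 (-0.02 without the 2 libraries low in Xist). Nampt was at 75.2, 116 and 91.7 CPM in NMN-treated old tumours and at 120.3, 128 and 109 CPM in untreated old tumours, so the groups overlapped (log2 difference -0.36 ± 0.20 (SE), limma adjusted p = 0.498). Nmrk1, the kinase that phosphorylates nicotinamide riboside, was at 59.6, 69.7 and 79.6 CPM with NMN, against 61.6, 71.2 and 82.3 CPM without, almost the same range (log2 difference -0.04 ± 0.14 (SE)). Slc12a8, described in mice as an NMN transporter, was at 2.11, 2.29 and 2.21 CPM with NMN and at 1.36, 1.98 and 3.09 CPM without (log2 difference 0.06 ± 0.21 (SE)). Nt5e, the ectoenzyme CD73, was at 9.95, 11.9 and 13.2 CPM with NMN, against 22.2, 15.99 and 8.54 CPM without, and it overlapped as well. Naprt1, the salvage enzyme for nicotinic acid, was at 1.32, 1.17 and 1.21 CPM with NMN and at 0.938, 0.859 and 0.866 CPM without, apart but by a log2 difference of only 0.24 ± 0.13 (SE).

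The NAD-consuming enzymes were also mixed. Over 17 measured genes, 8 were higher and 9 lower, with a median of -0.09 (-0.01 without the 2 libraries low in Xist, 0.03 without NMN replicate 1). In limma 1 higher and 3 lower had an unadjusted p under 0.05, beside 7.13% of all genes higher and 3.26% lower. Cd38, the main NAD glycohydrolase, was at 2.97, 5.76 and 7.97 CPM in NMN-treated old tumours and at 11.9, 8.44 and 7.602 CPM in untreated old tumours, with overlap in NMN replicate 3 (log2 difference -0.71 ± 0.28 (SE), limma adjusted p = 0.478). Sarm1, a neuronal NAD hydrolase of axon degeneration, was at 20.9, 17.04 and 16.7 CPM with NMN, against 13.04, 12.9 and 14.9 CPM without. Its groups did not overlap (log2 difference 0.39 ± 0.18 (SE), limma adjusted p = 0.478).

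Among the sirtuins, the mitochondrial deacylase Sirt3 was at 12.2, 9.06 and 9.64 CPM with NMN and at 8.02, 6.28 and 7.79 CPM without, with no overlap (log2 difference 0.43 ± 0.21 (SE)). Sirt1 was at 25.01, 28.98 and 21.8 CPM with NMN, against 22.3, 21.5 and 25.6 CPM without (log2 difference 0.12 ± 0.14 (SE)), and Sirt7 differed by 0.03 ± 0.12 (SE). Neither separated the groups. Parp1, the main polymerase of the DNA damage response, was at 111, 171 and 139 CPM with NMN and at 137, 148 and 168 CPM without (log2 difference -0.12 ± 0.19 (SE)).

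Parp14, a mono-ADP-ribosyl transferase that interferons induce, was at 27.7, 57.8 and 30.4 CPM with NMN, against 115, 118 and 36.5 CPM without. The high values were those of untreated old replicates 1 and 2, the libraries low in Xist, and without them its log2 difference was 0.00 in place of -1.10. Parp9 moved likewise, at -0.76 with all libraries and -0.01 without those 2. Of 20 oxidative phosphorylation genes 11 were higher and 9 lower (median 0.01, or 0.08 without those 2 libraries and -0.04 without NMN replicate 1). Of 19 genes of glycolysis and hypoxia 10 were higher and 9 lower (median 0.08), where the median was 0.23 without those 2 libraries and -0.09 without NMN replicate 1.

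Neuronal genes had higher means in NMN-treated old tumours, and the replicate block decided whether they were called. Neurons release transmitter through vesicle fusion proteins, and the striatum, where these tumours were seeded, is built mainly of neurons that use gamma-aminobutyric acid (GABA). All 18 synaptic vesicle genes had higher means with NMN (median log2 difference 1.05), as did all 19 GABA and glutamate receptor genes (1.10) and all 7 genes of GABA synthesis and transport (1.42). Of 20 potassium, sodium and calcium channel genes 19 were higher (0.91). Over all genes 51.7% were higher, with a median of 0.01. In limma without the block 0 genes of these lists passed an adjusted p of 0.05, and with the block 13, 15, 3 and 10 genes were called higher in the same order. Over all neuronal lists 40 of 88 genes were called higher with the block, beside 3.16% of all genes.

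In all 7 genes of GABA synthesis and transport the groups did not overlap, where 12.7% of all genes were higher without overlap. The median of this list was 1.16 without the 2 libraries low in Xist. Slc6a11, the GABA transporter GAT3, was at 37.9, 74.4 and 67.4 CPM in NMN-treated old tumours and at 22.9, 15.4 and 18.7 CPM in untreated old tumours (log2 difference 1.57 ± 0.39 (SE), limma adjusted p = 0.478, 0.0526 with the block). Gad1, which makes GABA from glutamate, was at 107, 185 and 123 CPM with NMN, against 45.4, 23.9 and 57.7 CPM without (log2 difference 1.73 ± 0.57 (SE)). Abat, which breaks GABA down, was at 168, 129 and 155 CPM with NMN and at 74.4, 70.3 and 103 CPM without (log2 difference 0.87 ± 0.28 (SE), block adjusted p = 0.0417). For Gad1 and Slc6a11 the largest value was in NMN replicate 2, not in replicate 1. Slc32a1, which loads GABA into vesicles, was at 19.2, 17.7 and 26.03 CPM with NMN, against 10.8, 3.62 and 8.73 CPM without (block adjusted p = 0.0493).

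Vesicle release genes followed NMN replicate 1 more closely. Cplx1, a complexin that clamps vesicle fusion, was at 183, 105 and 100.02 CPM with NMN and at 58.7, 48.8 and 49.6 CPM without (log2 difference 1.24 ± 0.45 (SE), limma adjusted p = 0.478, 0.0319 with the block). Snap25, a protein of the vesicle fusion complex, was at 998, 345 and 313 CPM with NMN and at 309, 198 and 154 CPM without, a range led by NMN replicate 1 in which NMN replicates 2 and 3 stood just above the highest untreated tumour. Without NMN replicate 1 the synaptic median was 0.60, and without the 2 libraries low in Xist it was 1.34.

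The receptor and channel medians were also smaller without NMN replicate 1, at 0.76 for receptors and 0.58 for channels. Without the 2 libraries low in Xist they were 1.49 and 1.16 in the same order. Gabra5, a subunit of GABA-A receptors outside the synapse, was at 27.4, 16.96 and 8.84 CPM with NMN, against 8.82, 4.41 and 3.500 CPM without, and the lowest NMN value was just above the highest untreated one. Cacna1a, the pore of P/Q-type calcium channels, was at 128, 49.7 and 74.7 CPM with NMN, against 43.1, 27.98 and 33.98 CPM without, also without overlap (block adjusted p = 0.0364).

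Markers of the striatal projection neurons themselves showed no such split. Of 13 measured genes 10 were higher and 3 lower (median 0.20), 0 had an unadjusted p under 0.05, and 0 were called with the block (7.13% and 3.16% of all genes on the higher side). Bcl11b, a transcription factor of these neurons, was at 47.1, 40.8 and 46.9 CPM with NMN and at 30.1, 12.8 and 31.99 CPM without, and Adora2a, their adenosine receptor, was at 0.413, 1.24 and 6.34 CPM with NMN, against 6.099, 1.49 and 3.95 CPM without. The median of this list was -0.23 without NMN replicate 3 and -0.12 without untreated old replicate 2, and it was 0.09 without untreated old replicates 1 and 2. Of 12 tumour identity genes 11 were lower (median -0.35), among them Nes, a stem cell filament, at 147, 243 and 203 CPM with NMN and 255, 261 and 250.04 CPM without, with no overlap. The part that the amount of surrounding brain tissue in each sample had in these differences was not tested.

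**Figure D3:**
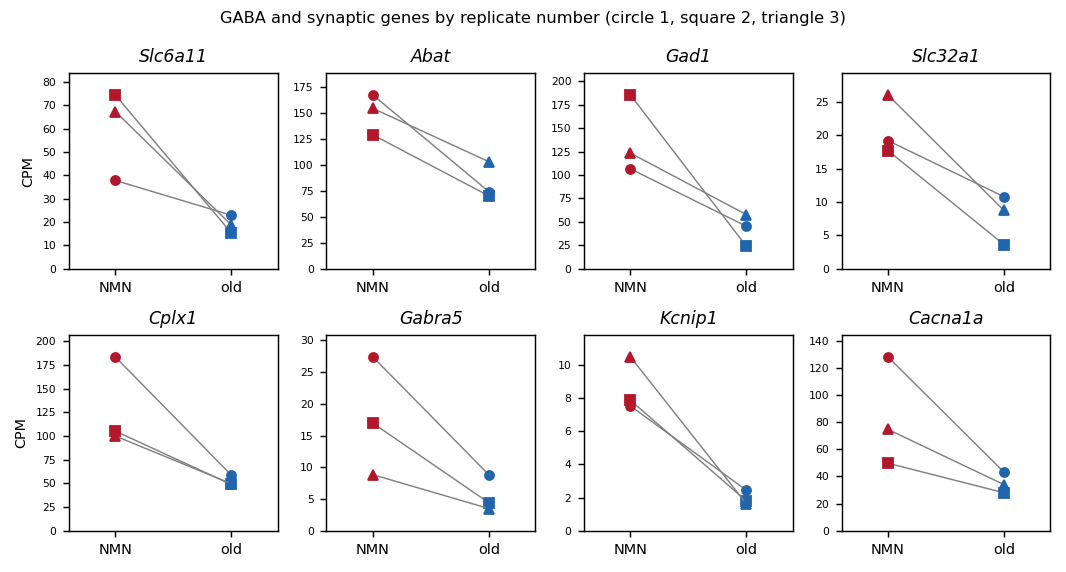
CPM of 8 genes of GABA handling, vesicle release, receptors and channels in NMN-treated old tumours (left, red) and untreated old tumours (right, blue), with lines joining libraries of the same replicate number. The groups do not overlap for any gene plotted, so all 3 lines must fall to the right in each panel, whichever libraries are joined. Replicate 1 is the highest NMN library for Abat, Cplx1, Gabra5 and Cacna1a.

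Most astrocyte and myelin genes had higher means with NMN. Astrocytes clear transmitter and buffer ions, and mature oligodendrocytes make myelin. Of 16 astrocyte genes 14 were higher with NMN (median 0.51), 6 of them at an unadjusted p under 0.05 (7.13% of all genes) and 2 called with the block (3.16% of all genes). The median was 0.77 without the 2 libraries low in Xist. Slc4a4, a sodium bicarbonate cotransporter of astrocytes, was at 149.7, 147 and 155 CPM in NMN-treated old tumours and at 91.7, 89.7 and 79.3 CPM in untreated old tumours, narrow ranges far apart (log2 difference 0.79 ± 0.22 (SE), limma adjusted p = 0.478, 0.0364 with the block). Gja1, the gap junction protein connexin 43, was at 72.5, 79.5 and 71.8 CPM with NMN, against 43.96, 24.4 and 37.7 CPM without (log2 difference 1.10 ± 0.39 (SE)). Gjb6, connexin 30, was at 34.2, 12.4 and 19.8 CPM with NMN and at 7.32, 4.82 and 4.704 CPM without, with no overlap for either connexin. Gfap, the astrocyte filament also made by glioma cells, went the other way, at 998, 1138 and 1268 CPM with NMN, against 1367, 1732 and 1453 CPM without (log2 difference -0.42 ± 0.33 (SE), limma adjusted p = 0.579).

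Of 13 myelin genes 12 were higher (median 0.66, or 0.93 without the 2 libraries low in Xist), and 3 were called with the block, beside 3.16% of all genes. Mbp, a major myelin protein, was at 922, 406 and 445 CPM with NMN and at 297, 239.9 and 218 CPM without (log2 difference 1.14 ± 0.56 (SE), limma adjusted p = 0.485, 0.0417 with the block). Mobp, a myelin protein of oligodendrocytes, was at 65.8, 46.2 and 49.1 CPM with NMN, against 34.9, 25.8 and 17.3 CPM without (block adjusted p = 0.0399). Neither overlapped between the groups. Of 14 genes of oligodendrocyte precursors and proneural glioma 11 were lower (median -0.20), but none reached an unadjusted p of 0.05, and the median was 0.02 without the 2 libraries low in Xist. Pdgfra, the growth factor receptor of these precursors, was at 247, 127 and 205 CPM with NMN and at 389.98, 299 and 184 CPM without, with overlap.

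All 15 mesenchymal glioma genes were lower in NMN-treated old tumours, with a median of -0.70. This list marks the invasive, wound-like state of glioma. An unadjusted p under 0.05 was found for 7 of the 15, beside 3.26% of all genes on the lower side, while 0 were called with the block and 1, Lgals1, by DESeq2. Anxa2, a membrane-binding annexin, was at 10.03, 14.9 and 18.4 CPM with NMN and at 51.2, 25.2 and 20.2 CPM without. S100a11, a calcium-binding protein, was at 6.03, 7.74 and 11.01 CPM with NMN and at 37.7, 14.7 and 11.1 CPM without. In both the highest value was that of untreated old replicate 1 and untreated old replicate 3 came nearest to the NMN range. The list median was -0.43 without untreated old replicates 1 and 2.

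Most matrix genes were also highest in untreated old replicate 1. Of 19 genes of fibrillar and basement membrane matrix 17 were lower (median -0.53), 6 of them at an unadjusted p under 0.05, beside 3.26% of all genes. Fn1, fibronectin, at chr1:71585473-71653280, was at 149, 312 and 293 CPM in NMN-treated old tumours and at 2532, 759.8 and 432 CPM in untreated old tumours. Col3a1, a fibrillar collagen, was at 2.02, 4.36 and 6.59 CPM with NMN, against 158, 34.4 and 13.5 CPM without, and Col6a3, a beaded-filament collagen, was at 2.68, 2.72 and 6.42 CPM with NMN, against 157, 27.1 and 6.699 CPM without. No NMN library reached the untreated range for these 3 genes, yet untreated old replicate 1 was far above the other untreated tumours. DESeq2 called all 3 lower, at adjusted p values of 0.0254 for Fn1, 0.00507 for Col3a1 and 0.00507 for Col6a3, and limma gave 0.478 for Fn1. The list median was -0.26 without untreated old replicate 1 and -0.21 without untreated old replicates 1 and 2. Of 17 metalloproteases and inhibitors 11 were lower (median -0.12, or -0.01 without those 2 libraries), among them Adamts9, a versican-cleaving protease, at 38.4, 21.8 and 45.1 CPM with NMN and 85.8, 58.4 and 53.3 CPM without.

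Interferon-induced genes had lower means in NMN-treated old tumours, by an amount that depended on untreated old replicates 1 and 2. Interferons switch on genes whose promoters hold the interferon-stimulated response element (ISRE). The list medians were -0.63 over 24 type I interferon genes (all lower), -1.45 over 17 interferon gamma induced GTPases (all lower), -0.74 over 18 genes of MHC class I presentation (17 lower) and -1.03 over 9 genes of MHC class II presentation (all lower), where 48.3% of all genes were lower. Without untreated old replicates 1 and 2, which were low in Xist, the medians were -0.10, 0.29, 0.41 and 0.83 in the same order. Against untreated old replicate 3 alone, the GTPase and MHC genes thus had higher medians with NMN. Tumours were also paired by number, although the labels do not say what it stands for. The untreated tumours of the first and second pairs were those low in Xist. The mean log2 deviation of a list was lower with NMN in 3 of 3 pairs for the type I, GTPase and class II lists. For class I it was lower in 2 of 3 pairs. In the third pair it was -0.55 with NMN and -0.24 without for type I genes, -1.43 and -0.97 for the GTPases, -1.62 and -1.50 for class II and -0.82 and -0.83 for class I. With the block 1 type I gene (Ifit3), 1 GTPase (Gbp2) and 0 MHC genes were called lower, beside 0.0539% of all genes.

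The promoters of 3 interferon-induced genes are shown because the letters of the ISRE stand in them, in RefSeq sequence of GRCm38.p6 from 250 bases before to 50 bases after the start site, 5′ to 3′ on the gene's strand. Capitals mark the motif searched on both strands, GAAA and GAAA with 2 bases of any kind between them, which reads as TTTC and TTTC on the other strand.
Ifit3 (chr19:34583279-34583578, plus strand): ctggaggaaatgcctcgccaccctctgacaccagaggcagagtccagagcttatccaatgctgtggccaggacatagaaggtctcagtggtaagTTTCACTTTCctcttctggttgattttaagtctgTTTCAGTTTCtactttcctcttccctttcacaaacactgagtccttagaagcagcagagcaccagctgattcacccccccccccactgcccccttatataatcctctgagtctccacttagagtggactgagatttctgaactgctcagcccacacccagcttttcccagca
Gbp2 (chr3:142620413-142620712, plus strand): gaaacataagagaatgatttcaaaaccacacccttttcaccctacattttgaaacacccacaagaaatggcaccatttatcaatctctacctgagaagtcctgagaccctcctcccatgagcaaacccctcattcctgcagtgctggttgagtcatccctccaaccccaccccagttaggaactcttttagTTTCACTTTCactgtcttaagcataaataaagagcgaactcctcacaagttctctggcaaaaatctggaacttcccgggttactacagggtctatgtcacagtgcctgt
Rsad2 (chr12:26456403-26456702, minus strand): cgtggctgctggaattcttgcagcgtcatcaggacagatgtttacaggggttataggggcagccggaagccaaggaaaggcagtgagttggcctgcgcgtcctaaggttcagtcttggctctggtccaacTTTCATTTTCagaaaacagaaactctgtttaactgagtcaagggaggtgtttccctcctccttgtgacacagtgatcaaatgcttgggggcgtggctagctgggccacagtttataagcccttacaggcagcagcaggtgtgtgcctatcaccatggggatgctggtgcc
The motif began 156 and 122 bases before the start site in Ifit3, 59 bases before it in Gbp2 and 120 bases before it in Rsad2. It was found in 55.6% of the type I interferon genes with a promoter in the table (10 of 18) and in 90% of the interferon gamma induced GTPases (9 of 10). Among MHC class I genes it was found in 26.7%, and among MHC class II genes in 16.7%, against 3.76% of the 11041 measured genes with a promoter. Such a match describes the letters only.

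Rsad2, the antiviral protein viperin, was at 27.3, 24.3 and 21.8 CPM in NMN-treated old tumours and at 52.7, 53.8 and 30.7 CPM in untreated old tumours. The groups did not overlap, although untreated old replicate 3 stood close to the NMN range (log2 difference -0.84 ± 0.26 (SE), limma adjusted p = 0.478, 0.0595 with the block). Ifit3, of a family of antiviral RNA-binding proteins, was at 48.7, 55.7 and 20.2 CPM with NMN, against 98.1, 90.3 and 32.9 CPM without, so the groups overlapped, while each NMN tumour lay below the untreated tumour of its number (log2 difference -0.79 ± 0.53 (SE), limma adjusted p = 0.535, 0.0415 with the block). Without untreated old replicates 1 and 2 its difference was 0.20. Gbp2, a GTPase that attacks the vacuoles of intracellular pathogens, was at 39.01, 76.3 and 28.4 CPM with NMN and at 224, 212 and 56.6 CPM without. It too was lower within each pair (log2 difference -1.64 ± 0.70 (SE), block adjusted p = 0.0467) and differed by -0.36 without the same libraries. The block test favours genes that differ alike in each pair, so for Ifit3 and Gbp2 the pairs add no second result. Reads of the Gbp cluster and of the H2 genes are shared between similar copies by the authors' counting program, so single members are uncertain.

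Ifit2, which also binds viral RNA, was at 39.3, 47.8 and 37.2 CPM with NMN, against 85.5, 93.7 and 39.9 CPM without. Psmb10, a subunit of the immunoproteasome that cuts peptides for class I presentation, was at 18.2, 20.7 and 13.4 CPM with NMN and at 50.4, 51.7 and 15.6 CPM without. H2-Eb1, a class II chain of antigen-presenting cells, was at 6.11, 40.3 and 1.38 CPM with NMN, against 65.7, 74.04 and 2.41 CPM without. In H2-Eb1 the third tumour was the lowest of both groups and NMN replicate 2 the highest of the NMN tumours. Ciita, the master activator of class II genes, was at 1.73, 3.66 and 1.67 CPM with NMN and at 6.61, 8.29 and 1.35 CPM without.

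**Figure D4:**
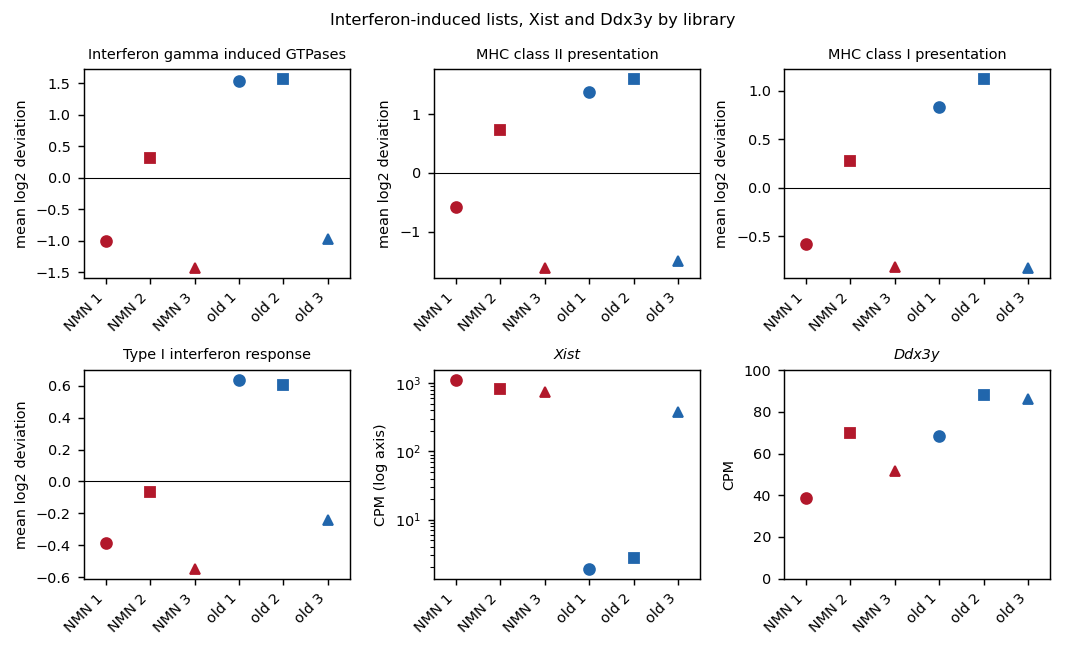
Mean log2 deviation of 4 interferon-related lists from the mean of the 6 libraries, and CPM of Xist (log axis) and Ddx3y, in each NMN-treated old tumour (red) and untreated old tumour (blue). Untreated old replicates 1 and 2 have the highest list scores and the lowest Xist, and untreated old replicate 3 lies within or just below the range of the NMN tumours in all 4 lists.

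Microglial genes were measured in full, while measured genes of T, NK and B cells were few and low. Of 12 homeostatic microglial genes 6 were higher and 6 lower (median 0.02), but without the 2 libraries low in Xist 11 were higher and 1 lower (median 0.64). P2ry12, a receptor of resting microglia, was at 13.6, 13.6 and 10.3 CPM in NMN-treated old tumours and at 14.2, 11.4 and 6.44 CPM in untreated old tumours, with overlap (log2 difference 0.26 ± 0.30 (SE)). Of 17 genes of disease-associated and aged glia 15 were lower (median -0.20), but the median was 0.12 without the 2 libraries low in Xist. Spp1, osteopontin, was at 15.97, 45.1 and 69.9 CPM with NMN, against 295, 80.1 and 133 CPM without, with no overlap (log2 difference -1.95 ± 0.61 (SE), limma adjusted p = 0.478). Clec7a, a receptor for fungal glucans on activated microglia, was at 16.1, 27.03 and 10.8 CPM with NMN and at 32.9, 52.2 and 18.97 CPM without, which overlapped although each pair had the NMN tumour lower (block adjusted p = 0.0372). The block test itself favours such agreement between pairs.

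T and NK cell genes were low, and all 4 that were measured had lower means with NMN (median -0.50). Without the 2 libraries low in Xist 2 were higher and 2 lower (median 0.06). Cd4, a coreceptor of helper T cells, was at 0.66, 1.67 and 1.29 CPM with NMN, against 3.66, 3.36 and 2.03 CPM without, and Cd8a, the coreceptor of cytotoxic T cells, was at 1.73, 2.26 and 1.92 CPM with NMN, against 2.53, 2.32 and 1.66 CPM without. The first separated the groups and the second did not. Of 16 chemokine genes 12 were lower (median -0.53), while without the 2 libraries low in Xist 7 were higher and 9 lower (median -0.10). Both genes called with the block were higher, beside 3.16% of all genes. Cx3cl1, the neuronal ligand of the microglial receptor Cx3cr1, was at 150.4, 85.4 and 78.8 CPM with NMN and at 75.2, 41.1 and 38.2 CPM without (log2 difference 1.02 ± 0.41 (SE), block adjusted p = 0.0267). Cxcl14 was at 21.2, 13.1 and 13.1 CPM with NMN, against 9.15, 6.01 and 5.68 CPM without (block adjusted p = 0.0352). Ccl2, which draws in monocytes, was at 0.743, 0.972 and 1.04 CPM with NMN and at 2.39, 1.76 and 1.05 CPM without. Plac8, of monocytes and neutrophils, was at 0.784, 1.32 and 1.13 CPM with NMN, against 31.3, 9.900 and 1.02 CPM without, so untreated old replicates 1 and 2 alone carried its high level.

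Genes of the unfolded protein response had lower means with NMN, all 20 of them (median -0.43). This pathway raises chaperones of the endoplasmic reticulum when proteins misfold there, through the factors Atf6 and Xbp1. An unadjusted p under 0.05 was found for 3, beside 3.26% of all genes on the lower side, and 0 were called lower with the block (0.0539% of all genes). The promoter of Hspa5 is shown because the endoplasmic reticulum stress element, CCAAT and CCACG with 9 bases of any kind between them, in capitals, stands in it 65 bases before the start site. The same window of RefSeq GRCm38.p6 was used.
Hspa5 (chr2:34771840-34772139, plus strand): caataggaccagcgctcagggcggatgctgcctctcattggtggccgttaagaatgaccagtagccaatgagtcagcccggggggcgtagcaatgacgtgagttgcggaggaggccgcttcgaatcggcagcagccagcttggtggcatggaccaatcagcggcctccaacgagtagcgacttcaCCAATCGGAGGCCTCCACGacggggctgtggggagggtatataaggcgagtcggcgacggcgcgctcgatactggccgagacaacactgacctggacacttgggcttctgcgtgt
The element, read on both strands, was found in 38.9% of unfolded protein response genes (7 of 18) and in 0.172% of the measured genes.

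Hspa5, the chaperone BiP, was at 345, 439 and 691 CPM in NMN-treated old tumours and at 681, 717 and 876 CPM in untreated old tumours (log2 difference -0.68 ± 0.25 (SE), limma adjusted p = 0.478). NMN replicate 3 lay just inside the untreated range. Edem1, which marks misfolded glycoproteins for disposal, was at 45.5, 49.5 and 52.3 CPM with NMN, against 71.2, 66.1 and 65.7 CPM without. Creld2, a secreted stress protein, was at 11.5, 24.5 and 31.7 CPM with NMN and at 34.9, 37.2 and 41.96 CPM without, and both of these kept the groups apart. The list median was -0.26 without NMN replicate 1 and -0.61 without the 2 libraries low in Xist. Heat shock genes were lower in 9 of 12, but the inducible Hspa1a was at 8.75, 4.16 and 4.38 CPM with NMN, against 2.72, 2.43 and 2.15 CPM without, higher and without overlap (log2 difference 0.92 ± 0.29 (SE)).

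Cell cycle genes had lower means with NMN, most of all in NMN replicate 1. Of 20 mitosis genes 19 were lower (median -0.38), and of 20 genes of DNA replication and nucleotide synthesis 19 were lower (median -0.46), with 0 and 1 at an unadjusted p under 0.05 (3.26% of all genes on the lower side). Mki67, a marker of cycling cells, was at 292, 548 and 397 CPM in NMN-treated old tumours and at 589, 586 and 643 CPM in untreated old tumours (log2 difference -0.60 ± 0.31 (SE), limma adjusted p = 0.485). The groups did not overlap, although NMN replicate 2 was close to the untreated values. Mcm6, a helicase subunit of replication forks, was at 45.4, 116 and 76.7 CPM with NMN, against 111, 121 and 114 CPM without. Rfc3, a subunit of the clamp loader, was at 15.02, 18.98 and 19.4 CPM with NMN and at 24.96, 27.01 and 25.6 CPM without. Without NMN replicate 1 the medians were -0.15 for mitosis and -0.14 for replication, and without the 2 libraries low in Xist they were -0.65 and -0.61.

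Genes of cell cycle arrest and of the senescence-associated secreted factors were lower in 15 of 19 (median -0.39), 4 at an unadjusted p under 0.05, beside 3.26% of all genes. Without the 2 libraries low in Xist 9 were higher and 10 lower (median -0.10). Cdkn2a, the locus of the inhibitors p16 and p19Arf, was at 22.04, 13.9 and 24.9 CPM with NMN, against 47.3, 33.2 and 29.6 CPM without (log2 difference -0.84 ± 0.23 (SE), limma adjusted p = 0.478). Cdkn2b, the neighbouring inhibitor p15, was at 3.05, 3.89 and 4.76 CPM with NMN and at 8.397, 5.87 and 6.21 CPM without (log2 difference -0.68 ± 0.20 (SE)). Neither gene overlapped between the groups. Cdkn1a, the p53-induced inhibitor p21, was at 52.9, 21.7 and 34.4 CPM with NMN, against 21.2, 28.1 and 21.8 CPM without, with overlap, and so ran opposite in its mean (log2 difference 0.52 ± 0.33 (SE)). Of 18 p53 target genes 12 were higher and 6 lower (median 0.07, or 0.11 without those 2 libraries). Gadd45a, a growth arrest gene, was at 5.82, 5.91 and 5.84 CPM with NMN and at 13.6, 8.03 and 8.84 CPM without, with no overlap.

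Signalling genes gave small medians and a few separated members. Among 23 glioma receptor tyrosine kinases and ligands 13 were higher and 10 lower (median 0.22, or 0.01 without untreated old replicate 3). Without the 2 libraries low in Xist 20 were higher and 3 lower, at a median of 0.22. Fgf1, an acidic fibroblast growth factor, was at 24.3, 24.5 and 34.6 CPM in NMN-treated old tumours and at 15.01, 12.7 and 11.3 CPM in untreated old tumours (log2 difference 1.03 ± 0.28 (SE), limma adjusted p = 0.478). Igf1r, the insulin-like growth factor receptor, was at 161, 188 and 178 CPM with NMN, against 123, 137 and 150.2 CPM without. Its ligand gene Igf2 was at 23.7, 19.95 and 75.6 CPM with NMN and at 7.98, 10.4 and 17.7 CPM without, and the block called it (adjusted p = 0.0414). In these 3 genes no NMN value fell inside the untreated range. Igf2 was highest in NMN replicate 3, the library high in the choroid plexus genes Ttr and Kl, and a link between them was not tested. Of 16 Notch pathway genes 11 were higher (median 0.11), or 8 of 16 without the 2 libraries low in Xist (median -0.0035). Jag2, a Notch ligand, was at 16.7, 9.102 and 12.7 CPM with NMN and 7.46, 5.34 and 6.25 CPM without. Of 21 Wnt pathway genes 15 were higher (median 0.15, or 0.10 without those 2 libraries), with Axin2, a feedback target of Wnt, at 52.05, 63.7 and 45.8 CPM with NMN and 32.7, 39.6 and 42.7 CPM without. Cntfr, the receptor of ciliary neurotrophic factor, was at 25.96, 31.4 and 21.7 CPM with NMN, against 13.7, 15.1 and 15.3 CPM without (log2 difference 0.79 ± 0.26 (SE)).

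The 8 genes called lower with the block were chosen after their values were seen: Nrep, Cav1, Dysf, Pgm5, Cers1, Clec7a, Gbp2 and Ifit3. Nrep, named for neuronal regeneration, was at 42.8, 35.7 and 25.9 CPM with NMN and at 140.1, 61.1 and 65.9 CPM without, and it was also called by DESeq2 (adjusted p = 0.0255, block adjusted p = 0.0381). Cav1, the coat protein of caveolae, was at 15.5, 18.3 and 27.03 CPM with NMN, against 30.6, 31.5 and 52.2 CPM without (log2 difference -0.87 ± 0.31 (SE)). Dysf, the membrane repair protein dysferlin, was at 8.09, 9.14 and 10.9 CPM with NMN and at 19.9, 17.04 and 24.1 CPM without (log2 difference -1.04 ± 0.36 (SE)). Pgm5, a relative of phosphoglucomutase found at adherens junctions, was at 8.503, 6.22 and 14.1 CPM with NMN, against 18.2, 19.3 and 26.5 CPM without. Nrep, Cav1, Dysf and Pgm5 did not overlap between the groups. Cers1, a ceramide synthase of neurons, was at 0.289, 0.0778 and 0 CPM with NMN, at or near the floor of 3 reads, and at 28.4, 4.67 and 2.48 CPM without.

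**Figure D5:**
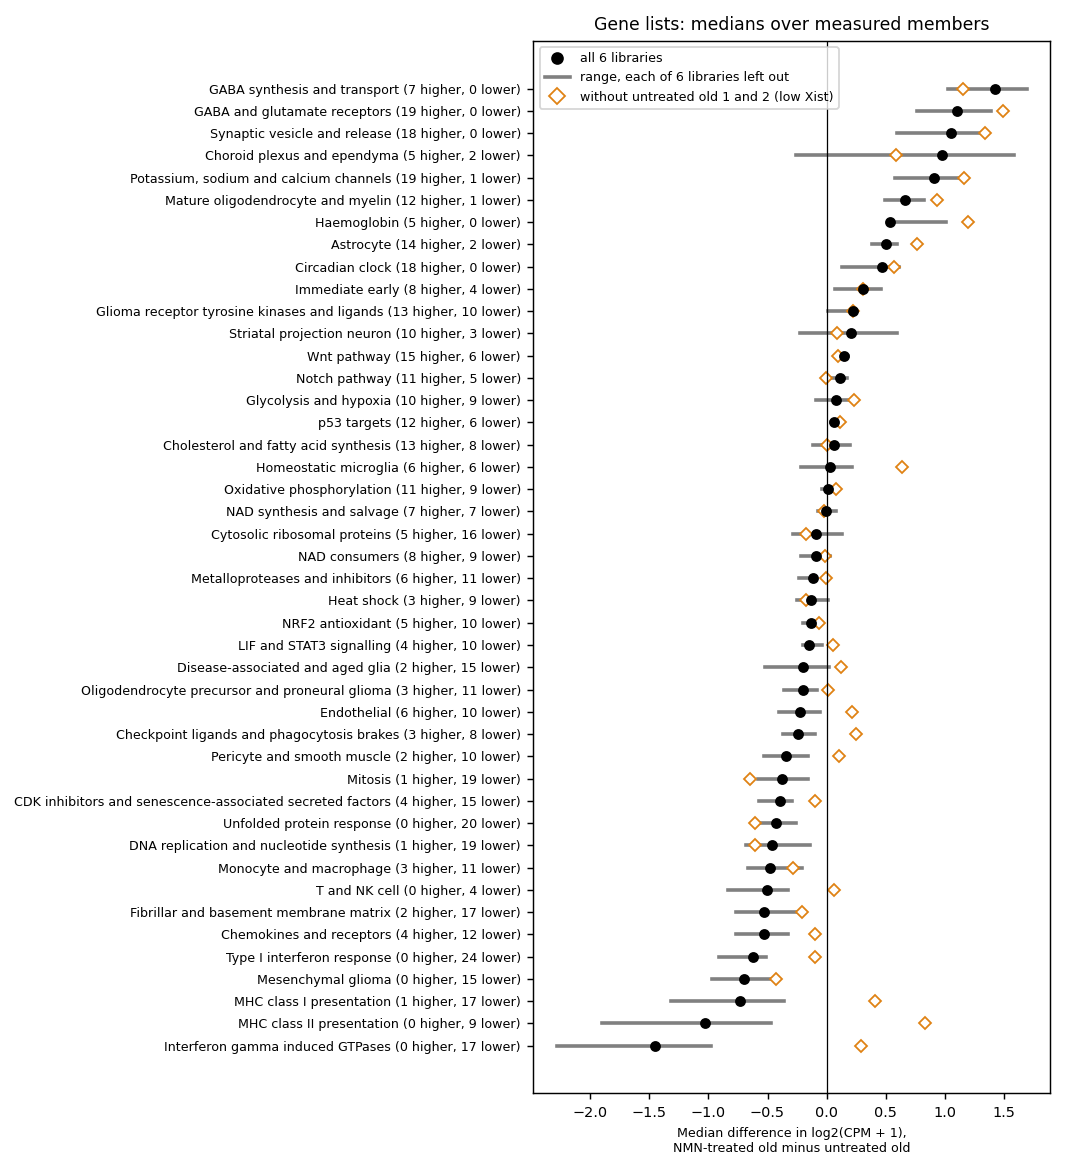
Median difference in log2(CPM + 1) over the measured members of each gene list, NMN-treated old minus untreated old, with counts of members higher and lower. Black points use 6 libraries, grey lines span the medians when each library is left out, and orange diamonds leave out untreated old replicates 1 and 2, where the interferon gamma and MHC medians lie above 0.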

How the data were processed

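Tumour RNA from 12 mice was sequenced, and the 6 libraries of NMN-treated old and untreated old hosts were compared. Per the labels' protocols, RNA was extracted with TRIzol, ribosomal RNA was depleted, and stranded paired-end libraries were run on a HiSeq instrument. The submitters' processing notes name FastQC, Bowtie2 2.1.0, RSEM 1.2.15 and edgeR, and the builds mm10 and GRCm38. Whether counting used strand is not stated there. The deposited file is a table of CPM values with TMM scaling by the authors, of 24054 rows, 27 of them with symbols turned into dates, which were not named. RSEM divides reads among similar genes, so values of near-identical copies (Dynlt1c, Gbp, H2 and haemoglobin genes) are uncertain.

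CPM values were whole multiples of 1 read in 100% of cases at a tolerance of 0.01. The floor is 3 reads and covers counting error only. Genes needed 1 CPM or more in 3 or more of the 6 libraries. Values were taken as log2(CPM + 1), a scale that understates changes of low genes, and a trended limma model (limma 3.58.1, R 4.3.3) was fitted to all 12 libraries with a separate mean for each group. p-values were two-sided, adjusted with the Benjamini-Hochberg method over 14849 genes and called under 0.05. In this fit they set a difference against the spread between tumours within groups of 3, estimated over all 12 libraries. Alternatives were edgeR 4.0.16 and DESeq2 1.42.0 on recovered reads, other scalings, filters and pseudocounts, quality weights, and each library left out. A replicate block was fitted to the 6 compared libraries only, not to all 12. Another fit left out the 2 compared libraries with low Xist. Young replicate 3, with Xist at 5.33 CPM, stayed in that fit. The limma fit without the block, edgeR and DESeq2 were tested on simulated data, and the block and the other steps were not. Same-numbered libraries correlated better with each other, in their deviations from the group means, than with any other library of the other group. For NMN replicate 2 the correlation was 0.207 with untreated old replicate 2 and 0.127 with untreated old replicate 3. These values come from the libraries and genes that the block then tests, so they cannot show that the numbers mark pairs. The block is given beside each result whose call it changes.

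Members and the 48 gene lists (776 entries, 770 with a row, 712 kept) were chosen with earlier results of these data known. Genes were named by rule: up to 15 per direction with the smallest limma p, up to 10 per direction called by DESeq2, both without overlap between groups and averaging 2 CPM or more in whichever group was higher, up to 4 per list by p, all NAD genes, and 15 genes always open to naming. Unnamed gene models were left out, and some items are not reported here. Markers Sox2 and Ms4a1 and the genes called lower with the block stand outside it. Promoters came from RefSeq (GRCm38.p6).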

Additional observations from a re-analysis of the deposited data

How the results depend on the processing

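Without the block, 0 genes were called in limma in either direction under every other pseudocount, filter and scaling tried, with only the 6 libraries, with each library left out, without untreated old replicates 1 and 2, and by edgeR. The replicate block called 469 higher and 8 lower, and DESeq2 called 19 higher and 25 lower. Library quality weights called 4106 higher and 3423 lower, but their estimation did not converge, so no result is drawn from them. Unadjusted p under 0.05 was found for 398 to 1509 genes higher and 248 to 835 lower when 1 library was left out, and for 389 higher and 156 lower without the 2 libraries low in Xist. It was found for 2075 higher with the block, for 4530 higher and 3981 lower with quality weights, and for 829 lower by DESeq2. Where the groups did not overlap, as the naming rule often required, leaving out libraries could not turn a gene's direction. Of 105 genes named, 92 kept their direction without the libraries low in Xist. The others gave 1.38 (H2-Eb1), 0.46 (Ciita), 0.40 (Nt5e), 0.20 (Ifit3), 0.16 (Cd8a), 0.13 (Psmb10), 0.045 (Ifit2), 0.035 (Plac8), 0.016 (Pdgfra), 0.0037 (Parp14), -0.016 (Sirt7), -0.025 (Sirt1) and -0.35 (Slc12a8). Signs also turned with quantile normalization (-0.050 for Slc12a8, -0.016 for Sirt7), median centring (-0.019 for Sirt7), edgeR (-0.013 for Slc12a8, -0.0084 for Sirt7) and quality weights (-0.092 for P2ry12, 0.16 for Nmrk1, 1.21 for Adora2a). With 1 library left out, values ran from -0.12 to 0.27 (Slc12a8), -0.029 to 0.49 (P2ry12), -0.27 to 0.038 (Parp1) and -0.14 to 0.065 (Nmrk1). The causes were not tested. Depth limits values near 3 reads, as for Ms4a1 and for Cers1 with NMN.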

Other observations

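All 18 circadian clock genes had higher means in NMN-treated old tumours, with a median log2 difference of 0.47. Arntl, the activator Bmal1 at the core of the clock, was at 27.7, 15.3 and 21.3 CPM with NMN, against 12.3, 13.3 and 16.03 CPM without. Nr1d1, its repressor Rev-erb alpha, was at 77.1, 38.2 and 38.1 CPM with NMN and at 32.7, 27.9 and 24.7 CPM without, and Rorb, a nuclear receptor of the same loop, was at 85.8, 51.4 and 56.1 CPM with NMN, against 38.3, 44.3 and 40.9 CPM without. NMN replicate 1 was the highest in each, and without it the list median was 0.13. The labels do not give the hour at which tumours were taken. In limma 3 of the 18 had an unadjusted p under 0.05, beside 7.13% of all genes on the higher side, and 0 were called.

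The choroid plexus genes Ttr and Kl were high in NMN replicate 3 alone. Ttr, the thyroxine carrier of the choroid plexus, was at 3.10, 0.622 and 841 CPM with NMN, against 1.92, 1.57 and 10.8 CPM without, and Kl, the klotho gene, was at 1.86, 0.739 and 47.97 CPM with NMN and at 1.08, 0.411 and 1.43 CPM without. Hba-a1, an alpha globin gene of red cells whose reads are shared with its copy, was at 29.5, 22.99 and 146 CPM with NMN, against 12.4, 10.2 and 12.5 CPM without, with the same library highest. Without that library the choroid plexus median was -0.26 in place of 0.97, and without the 2 libraries low in Xist it was 0.58. The part of this tissue in other values of the library was not tested.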
